A study of Mus musculus with 15 samples.

Results

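The Cyp2c genes encode a subfamily of cytochrome P450 enzymes, and 10 of them were followed here in mouse liver by RNA-seq: Cyp2c29, Cyp2c37, Cyp2c38, Cyp2c39, Cyp2c40, Cyp2c44, Cyp2c50, Cyp2c54, Cyp2c55 and Cyp2c70. They were taken by symbol from a deposited table of 19464 rows, in which 17 rows with 16 different symbols belong to the Cyp2c subfamily. Total reads decided between rows only for Cyp2c50, which has 2 rows. The row left out held 9 reads in 1 fetal wildtype library and 0 in the other 14. The 10 genes were chosen by their read counts in the 4 genotype and age groups, with earlier results of these data known, so the counts below describe these genes and are not independent evidence on the subfamily. Adjusted p-values come from fits to all genes and set each difference against the spread between libraries. The other 6 Cyp2c symbols are given beside them where a comparison needs them.

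Liver RNA came from wildtype mice and from Stab1-/- mice, in which the gene of the scavenger receptor Clever-1 is knocked out. Clever-1 is a protein of endothelial cells and macrophages. At 2 weeks of age there were 4 wildtype and 4 Stab1-/- libraries, and at the embryonic stage E17.5 there were 4 wildtype and 3 Stab1-/- libraries. The labels give all animals the mixed strain background C57BL/6N;129SvJ. They do not say which strain each animal carried at the Cyp2c genes, whether wildtype animals were littermates, or whether a library holds 1 animal or a pool, and p-values therefore measure the spread between these libraries.

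Cytochrome P450 enzymes are haem proteins of the endoplasmic reticulum that insert oxygen into lipids, steroids, bile acids and drugs, with electrons passed on by the reductase Por. In mice, Cyp2c genes are known for oxidising arachidonic acid to epoxides and hydroxy acids, and Cyp2c70 for making the muricholic bile acids of rodents. Many hepatic P450 genes are nearly silent before birth and are switched on in the weeks after it, and a number of mouse Cyp2c genes later differ between the sexes.

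On the RefSeq annotation of GRCm38.p6, 9 of the 10 genes lie in 1 cluster on chromosome 19, from Cyp2c55 (chr19:39006940-39042690) to Cyp2c70 (chr19:40153361-40187286), between Hells and Pdlim1. Cyp2c44, listed in RefSeq under the symbol Cyp2c23, lies apart on the same chromosome (chr19:44005022-44029256). The annotated RefSeq span of Cyp2c39 (chr19:39347346-39569568) encloses Cyp2c38 (chr19:39389556-39463103), whereas GENCODE vM21 starts Cyp2c39 downstream of it at position 39510862. The authors' build is not named in the sources used here, so positions only locate the genes and their neighbours.

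Reads on genes, in units of 1000, numbered 9659 to 10964 a library. Stab1 itself had 579, 766, 822 and 941 reads in the wildtype libraries of 2 weeks and 68 to 119 in the Stab1-/- libraries, a log2 difference of -3.19 (SE 0.20, adjusted p = 5.15e-06, edgeR with Benjamini-Hochberg adjustment). At E17.5 it had 1244 to 1868 reads in wildtype and 301 to 443 in Stab1-/- libraries, so reads on the gene remained in every Stab1-/- library. Hepatocyte markers were abundant in all libraries, with a summed level of 50280 to 94266 RPKM over 7 of the 8 listed genes. Erythroid markers summed to 147 to 377 RPKM at 2 weeks and to 9778 to 13125 RPKM at E17.5. Reads of 4 Y-linked genes summed to 0 to 2 in the 8 libraries of 2 weeks and to 13 to 2448 in the 7 fetal libraries. Xist, a transcript of female cells, and the Y-linked genes each had at least 100 reads in 6 of the 7 fetal libraries. Fetal Stab1-/- replicate 3 held 22419 reads of Xist and 13 of the Y-linked genes, and fetal wildtype replicate 4 held 119 and 2448. Whether a fetal library pools embryos of both sexes was not tested. Pancreatic markers reached a summed 2537 RPKM in wildtype replicate 2 at E17.5, against 13.5 to 248 RPKM in the other wildtype fetal libraries. Without that library, the numbers of the 10 genes called were the same in the 3 comparisons that use it, 8 between ages in wildtype, 0 between genotypes at E17.5 and 0 in the interaction of genotype and age. Intestinal markers summed to 462 RPKM in Stab1-/- replicate 1 at E17.5, against 181 and 188 RPKM in the other fetal Stab1-/- libraries. Without that library, too, the numbers called were the same in the 3 comparisons that use it, 9 between ages in Stab1-/- liver, 0 between genotypes at E17.5 and 0 in the interaction. The parts of these other cells and of sex in the values below were not tested, and in bulk tissue fewer cells of a type and less RNA per cell cannot be told apart.

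Promoter stretches are shown for 2 pairs of genes of the cluster that are alike in sequence, Cyp2c38 with Cyp2c39 and Cyp2c37 with Cyp2c50. Cyp2c54 lies between the genes of the second pair. Both genes of the first pair had more reads in every Stab1-/- library of 2 weeks than in any wildtype library, and only Cyp2c50 of the second pair did. Each stretch gives the 250 bases before a start site in a table of RefSeq promoters, 5′ to 3′ on the gene's own strand. The start used for Cyp2c38 lies just inside the annotated gene, and Cyp2c39 has 2 windows in the table, of which the one nearest its GENCODE start is shown. For Cyp2c38 (minus strand, chr19:39463076-39463325) and Cyp2c39 (plus strand, chr19:39510572-39510821), capitals mark the letters TGTTTAC, a core of FOXA binding sites, and TATAAA, the TATA box.
Cyp2c38: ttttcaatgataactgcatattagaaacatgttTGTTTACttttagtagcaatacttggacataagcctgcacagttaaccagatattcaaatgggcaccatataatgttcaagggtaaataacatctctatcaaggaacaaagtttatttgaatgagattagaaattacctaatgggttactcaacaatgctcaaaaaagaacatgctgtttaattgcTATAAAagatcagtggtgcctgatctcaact
Cyp2c39: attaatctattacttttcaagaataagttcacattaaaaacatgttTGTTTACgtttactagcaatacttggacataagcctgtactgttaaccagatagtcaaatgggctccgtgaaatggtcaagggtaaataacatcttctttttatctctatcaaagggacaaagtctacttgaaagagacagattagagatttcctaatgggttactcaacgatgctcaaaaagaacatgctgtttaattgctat

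Over windows of 300 bases, from 250 before to 50 after the start, the Cyp2c38 and Cyp2c39 promoters were 72.9% identical in a global alignment with gaps. The TATA box of Cyp2c39 begins 3 bases before that start, so its last letters fall outside the printed stretch. The table of promoters held windows for 8 of the 10 genes, and of these only Cyp2c38 and Cyp2c39 held TGTTTAC on either strand, against 3.65% of all 32851 promoter windows. TATAAA was found on either strand, at any position, in 6 of the 8 windows and in 13.6% of all windows. The Cyp2c40 match lay 40 bases after the start, and the Cyp2c70 match was on the opposite strand. Other motifs searched were those of C/EBP, STAT, HNF1 and nuclear receptors. They were found in 2, 0, 1 and 2 of the 8 windows and in 10.8%, 8.3%, 7.1% and 16.3% of all windows.

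For Cyp2c37 (chr19:39992174-39992423) and Cyp2c50 (chr19:40089429-40089678), both on the plus strand, capitals mark the bases that differ or lie against a gap when the stretches are aligned.
Cyp2c37: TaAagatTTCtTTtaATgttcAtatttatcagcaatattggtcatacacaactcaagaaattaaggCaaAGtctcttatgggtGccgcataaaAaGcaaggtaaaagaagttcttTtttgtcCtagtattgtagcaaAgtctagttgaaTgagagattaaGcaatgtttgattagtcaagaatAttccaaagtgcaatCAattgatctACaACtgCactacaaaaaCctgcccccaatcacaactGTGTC
Cyp2c50: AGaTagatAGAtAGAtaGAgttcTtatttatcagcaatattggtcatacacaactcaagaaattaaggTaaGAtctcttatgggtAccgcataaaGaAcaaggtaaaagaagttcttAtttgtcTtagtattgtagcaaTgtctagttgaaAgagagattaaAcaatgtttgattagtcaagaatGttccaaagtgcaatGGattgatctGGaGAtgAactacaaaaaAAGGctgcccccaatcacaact

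These 2 stretches were identical at 215 of 255 alignment columns, or 84.3%. Neither window held TATAAA or TGTTTAC, and a letter match or its absence says nothing of which factors bind there.

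Whether the genes switch on after birth was asked first, by comparing the ages within each genotype. In wildtype liver, 9 of the 10 genes passed the filter on low counts and 8 of them rose between E17.5 and 2 weeks, all but Cyp2c40. In Stab1-/- liver all 10 passed and 9 rose, again all but Cyp2c40. Over all genes tested by edgeR, 34.9% rose and 37% fell in wildtype liver, 71.9% in either direction. In Stab1-/- liver 35.7% rose and 36.8% fell, 72.5% in either direction. In 7 of the 10 genes in wildtype and 9 in Stab1-/- liver, every library of 2 weeks lay above every fetal one in RPKM, as did 21.1% and 28% of all genes tested, while 48% and 44% lay below. None of the 10 fell. By their own reads, 6 of the 9 genes tested in wildtype and 7 of the 10 in Stab1-/- liver passed the filter in the 2-week group alone, so these could only be called higher, and the counts describe them without standing as evidence against the shares over all genes. Cyp2c70, Cyp2c44 and Cyp2c40 passed in both ages. The split over all genes depended on the scaling, with 3104 genes higher and 6834 lower in wildtype when scaled by library totals and 1569 and 9211 when scaled by hepatocyte markers, against 4667 and 4948 as reported. In Stab1-/- liver these were 3758 and 5944, 2915 and 5992, and 4791 and 4945. Of the 10 Cyp2c genes, 8 and 7 were then called higher in wildtype and 9 in Stab1-/- liver under either scaling. The libraries of 2 weeks held at most 2 Y-linked reads and the fetal ones 13 or more, so age and the make-up by sex cannot be told apart in these comparisons.

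Cyp2c29, Cyp2c37 and Cyp2c50, which encode arachidonic acid oxidising enzymes, were close to silent before birth. Cyp2c29 had 31, 23, 7 and 11 reads in the wildtype fetal libraries and 3891, 4069, 3604 and 3718 in the wildtype libraries of 2 weeks, which is 0.944 ± 0.580 against 206 ± 17.7 RPKM (mean ± SD, n = 4 each). Its log2 difference between ages was 8.12 (SE 0.29, adjusted p = 2.78e-10, edgeR, Benjamini-Hochberg). The lowest library of 2 weeks was far above the highest fetal one.

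Cyp2c37 rose from 8 to 32 reads in fetal wildtype libraries to 2825 to 4353 reads at 2 weeks, with a log2 difference of 7.63 (SE 0.29). Cyp2c50 rose from 0 to 7 reads to 311 to 770 reads, with a log2 difference of 7.30 (SE 0.44). The log2 differences between ages in Stab1-/- liver were 9.65 (SE 0.20) for Cyp2c29, 8.30 (SE 0.34) for Cyp2c37 and 7.75 (SE 0.28) for Cyp2c50. No library of 2 weeks overlapped a fetal one for any of these 3 genes.

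Cyp2c55, best known from the intestine, was at 0 reads in 3 of 4 fetal wildtype libraries and at 1 read in the fourth, and had 208, 182, 80 and 90 reads in the wildtype libraries of 2 weeks. Against the single fetal read, its share of reads was 576 times higher, with an exact 95% interval of 103 to 22798 that covers counting error only. In Stab1-/- liver the 3 fetal libraries also held 1 read in all and the 4 libraries of 2 weeks held 304, a ratio of 241 with an interval of 42.9 to 9551. Of 5 tested intestinal markers, 2 rose and 3 fell between ages in wildtype. Fabp2, the fatty acid binding protein of the gut, went from a mean of 4.57 to 102 RPKM, while Tff3, a mucosal peptide, went from 133 to 3.78 RPKM. The intestinal regulators Cdx1 and Cdx2 had no reads at 2 weeks and at most 1 in any fetal wildtype library. The part of intestinal cells in the Cyp2c55 reads was not tested.

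Cyp2c54 rose from 1 to 5 reads in fetal wildtype libraries to 63, 13, 27 and 71 reads at 2 weeks, a log2 difference of 4.19 (SE 0.63, adjusted p = 6.64e-05, edgeR, Benjamini-Hochberg). Stab1-/- libraries went from 1 to 8 reads to 127 to 206 reads, a log2 difference of 5.73 (SE 0.40). The ages did not overlap in either genotype.

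Cyp2c39, whose product hydroxylates retinoic acid, varied widely among the wildtype livers of 2 weeks. It had 330, 12, 10 and 432 reads in wildtype replicates 1 to 4 at 2 weeks and 8, 1, 7 and 14 reads in the fetal wildtype libraries. Replicates 2 and 3 thus lay within the fetal range and replicates 1 and 4 far above it. The log2 difference between ages was 5.07 (SE 1.17, adjusted p = 0.00185, edgeR, Benjamini-Hochberg). In Stab1-/- liver all 4 libraries of 2 weeks held 1348 to 1885 reads, while 1 read was counted in the 3 fetal libraries together, a ratio of 4775 with an exact 95% interval of 857 to 188617 for counting error.

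Cyp2c38 was likewise lowest in wildtype replicates 2 and 3, at lower counts. Wildtype libraries of 2 weeks held 29, 2, 2 and 14 reads and fetal ones 1 to 4, too few for the filter, and their ranges overlapped. Stab1-/- libraries held 108 to 128 reads each at 2 weeks and 3 reads in all at E17.5, a ratio of 126 with an exact 95% interval of 42.8 to 612.

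Cyp2c70 and Cyp2c44 were already expressed before birth. Cyp2c70 had 1003 to 2031 reads in fetal wildtype libraries and 8285 to 12015 at 2 weeks, or 90.2 ± 24.6 against 565 ± 122 RPKM (mean ± SD, n = 4 each), a 6.27-fold difference in mean RPKM (adjusted p = 1.06e-07, edgeR, Benjamini-Hochberg). Its mean rose 10.1-fold in Stab1-/- liver. Cyp2c44, an arachidonic acid epoxygenase gene outside the cluster, rose the least of those that rose, from 29.1 ± 5.78 to 43.3 ± 8.87 RPKM in wildtype and from 26.8 ± 2.01 (n = 3) to 40.9 ± 7.29 RPKM (n = 4) in Stab1-/- liver. Its wildtype log2 difference of 0.94 (SE 0.17) fell to 0.04 when libraries were scaled by their hepatocyte marker reads, and the adjusted p of edgeR with Benjamini-Hochberg adjustment was then 0.865. Albumin makes up most of those marker reads.

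Cyp2c40, another arachidonic acid hydroxylase gene, did not pass the test between ages in either genotype. It had 91, 138, 122 and 168 reads in wildtype and 223, 134, 155 and 102 reads in Stab1-/- libraries of 2 weeks, against 121, 189, 164 and 29 and against 162, 429 and 52 reads in the fetal ones. Only 27.9% of the 50-base words of its transcript occur in no other gene, and 42.1% are shared with Cyp2c69, and 41.6 to 47.8% of its length was touched by reads in the Stab1-/- libraries of 2 weeks.

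**Figure D1:**
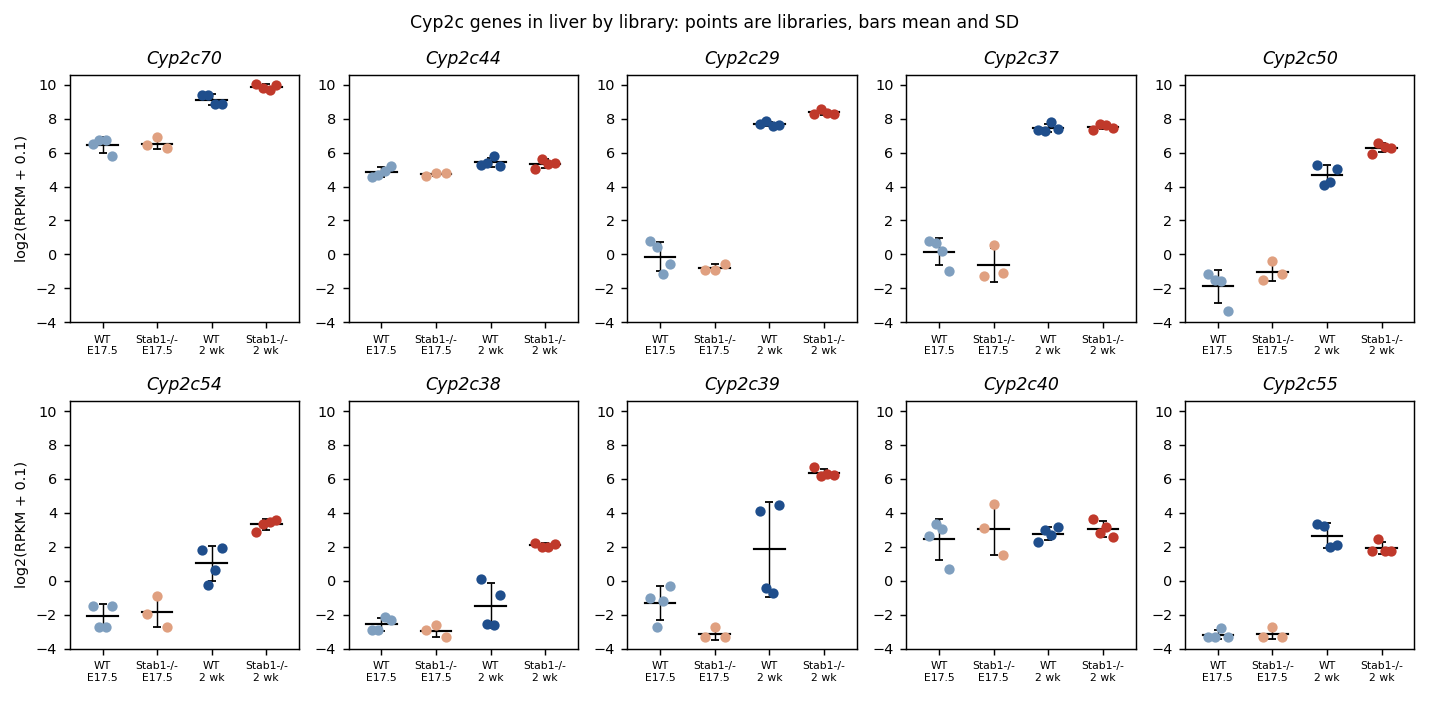
Levels of the 10 Cyp2c genes as log2(RPKM + 0.1) in each liver library, by genotype and age, where points are libraries and black bars give the mean and SD of 3 or 4 libraries. Most genes sit near the bottom at E17.5 and high at 2 weeks, Cyp2c70, Cyp2c44 and Cyp2c40 are present at both ages, and the wildtype points of Cyp2c39 at 2 weeks fall into a high and a low pair.

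Which genes were higher in Stab1-/- liver was asked next, at each age. At 2 weeks, Cyp2c70, Cyp2c29, Cyp2c50, Cyp2c54 and Cyp2c38 rose, from 1.62 times for Cyp2c29 to 10.7 times for Cyp2c38 in mean RPKM. Of the 10 genes tested, 5 were called higher and 0 lower by edgeR, against 0.936% higher and 1.74% lower, or 2.67% in either direction, of the 12716 genes tested. Scaled by library totals, 137 genes were called higher and 118 lower in place of 119 and 221, and still 5 and 0 of the 10. The median log2 difference of the 10 genes was 0.64, and that of all genes tested was -0.01. GC content was 39.6 to 48.1% in the 10 genes, against a median of 50.6% over the genes tested. It had a rank correlation of -0.325 with the log2 difference across genes. With GC-content offsets in the fit, the median of the 10 genes was 0.47, and 4 were called higher and 0 lower. In 6 of the 10 genes, the 5 called and Cyp2c39, every Stab1-/- library lay above every wildtype library, as did 10.4% of all genes tested, while 4.5% lay below. Cyp2c38 and Cyp2c39 passed the filter through the Stab1-/- libraries alone and so could only be called higher, and the count is given as a description. Cyp2c39, Cyp2c37, Cyp2c40, Cyp2c55 and, outside the cluster, Cyp2c44 did not pass the test, which does not show that they did not differ.

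Cyp2c70, the muricholic acid gene and the most abundant of the 16 Cyp2c genes at 2 weeks, had 18097, 16278, 13392 and 16789 reads in Stab1-/- and 12015, 11375, 8285 and 8427 in wildtype libraries. The genotypes did not overlap, at 949 ± 116 against 565 ± 122 RPKM (mean ± SD, n = 4 each). The log2 difference was 0.66 (SE 0.15, adjusted p = 0.0373, edgeR, Benjamini-Hochberg). The call was lost in 5 of the 8 fits without 1 library, those without Stab1-/- replicate 1, 2 or 4 or wildtype replicate 3 or 4, with adjusted p-values from 0.0791 to 0.110 by edgeR with Benjamini-Hochberg adjustment. It was also lost with GC-content offsets (log2 difference 0.47, adjusted p = 0.0693, edgeR, Benjamini-Hochberg).

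Bile acid genes listed with Cyp2c70 were not called at 2 weeks. Of 6 tested, 0 passed in either direction, and their median log2 difference was 0.08. The 2 with most reads were Abcb11, the bile salt export pump, and Slc10a1, the bile salt uptake carrier, with log2 differences of -0.02 (SE 0.26) and 0.03 (SE 0.12). Abcb11 ranged from 110 to 140 RPKM in Stab1-/- and from 82.9 to 225 RPKM in wildtype libraries, so the genotypes overlapped.

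Cyp2c29 had 5520, 7219, 5637 and 5450 reads in Stab1-/- and 3891, 4069, 3604 and 3718 in wildtype libraries of 2 weeks. All Stab1-/- libraries were higher, with 334 ± 32.8 against 206 ± 17.7 RPKM (mean ± SD, n = 4 each) and a log2 difference of 0.61 (SE 0.10, adjusted p = 0.0114, edgeR, Benjamini-Hochberg). It stayed called in all 8 fits without 1 library and in all 13 other settings tried.

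Cyp2c50 had 1136, 1867, 1493 and 1448 reads in Stab1-/- and 770, 311, 380 and 652 in wildtype libraries. The log2 difference was 1.47 (SE 0.24, adjusted p = 0.0101, edgeR, Benjamini-Hochberg). Cyp2c54, its neighbour, had 127, 189, 189 and 206 reads against 63, 13, 27 and 71, with a log2 difference of 2.01 (SE 0.36, adjusted p = 0.0142, edgeR, Benjamini-Hochberg). Neither gene's genotypes overlapped, and wildtype replicates 2 and 3 were the lowest for both. Of the 50-base words of Cyp2c54, 74.3% occur in no other gene, and Cyp2c50 is the gene it shares most with. Whether reads of Cyp2c50 were counted on Cyp2c54 was not tested, so the 2 calls may not be independent.

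Cyp2c38 had 128, 116, 108 and 124 reads in Stab1-/- and 29, 2, 2 and 14 in wildtype libraries, and Stab1-/- libraries varied little. Its log2 difference was 3.31 (SE 0.45, adjusted p = 0.00380, edgeR, Benjamini-Hochberg). Cyp2c39 had 1885, 1404, 1385 and 1348 reads in Stab1-/- against 330, 12, 10 and 432 in wildtype libraries, an 8.17-fold difference in mean RPKM. All Stab1-/- libraries were higher, but the spread among wildtype libraries left a log2 difference of 2.92 with an SE of 0.76 and an adjusted p of 0.0614 (edgeR, Benjamini-Hochberg). It passed in 5 of 13 other settings and in 1 of 8 fits without 1 library, the one without wildtype replicate 4 (adjusted p = 0.0444, edgeR, Benjamini-Hochberg).

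Cyp2c37, whose promoter stretch is shown above beside that of Cyp2c50, did not pass the test between genotypes. It had 2889, 3939, 3505 and 3123 reads in Stab1-/- and 3016, 2825, 4353 and 3271 in wildtype libraries, with a log2 difference of -0.03 (SE 0.15). Cyp2c44 differed by -0.17 (SE 0.17) and Cyp2c40 by 0.20 (SE 0.23) on the log2 scale, both with overlapping libraries. These standard errors leave room for modest differences in either direction.

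Cyp2c55 had 64, 114, 63 and 63 reads in Stab1-/- and 208, 182, 80 and 90 in wildtype libraries. In 3 of 4 Stab1-/- libraries it lay below every wildtype library, and replicate 2 overlapped with them. The log2 difference of -0.91 (SE 0.30) had an adjusted p of 0.110 by edgeR and of 0.0463 by DESeq2, both with Benjamini-Hochberg adjustment.

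Among the other 6 Cyp2c symbols, 3 were tested, of which 1 was called higher and 1 lower. Cyp2c67 had 314, 300, 271 and 347 reads in Stab1-/- and 96, 56, 46 and 142 in wildtype libraries, a log2 difference of 1.84 (SE 0.27, adjusted p = 0.00562, edgeR, Benjamini-Hochberg). Cyp2c68 had 1702, 1452, 1429 and 1211 reads against 1889, 2440, 2826 and 2020, a log2 difference of -0.70 (SE 0.14, adjusted p = 0.0262, edgeR, Benjamini-Hochberg). The Cyp2c68 call held in 8 of 13 other settings and in 4 of 8 fits without 1 library. It was lost without Stab1-/- replicate 2, 3 or 4 or wildtype replicate 3, with adjusted p-values from 0.0640 to 0.0848 by edgeR with Benjamini-Hochberg adjustment, while Cyp2c67 stayed called in all 13 and all 8. Only 47.2% of the 50-base words of Cyp2c67 and 56.7% of those of Cyp2c68 occur in no other gene. With Cyp2c40 they share 40.0% and 35.6%. Whether reads of these genes were counted on one another was not tested. Cyp2c69 differed by 0.13 (SE 0.21), and Cyp2c65, Cyp2c66 and the pseudogene Cyp2c53-ps held at most 9 reads in any library. In chromosome order, the genes whose Stab1-/- libraries all lay higher formed 2 runs, Cyp2c29, Cyp2c38, Cyp2c39 and Cyp2c67 in the first and Cyp2c54, Cyp2c50 and Cyp2c70 in the second. Between the runs lay Cyp2c68, Cyp2c40, Cyp2c69 and Cyp2c37, and outside them Cyp2c55 and the distant Cyp2c44. The runs were read off after the values were seen, and 10.4% of all genes tested lay higher without overlap. Neighbours that share sequence are not independent of each other, and the part of position was not tested.

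**Figure D2:**
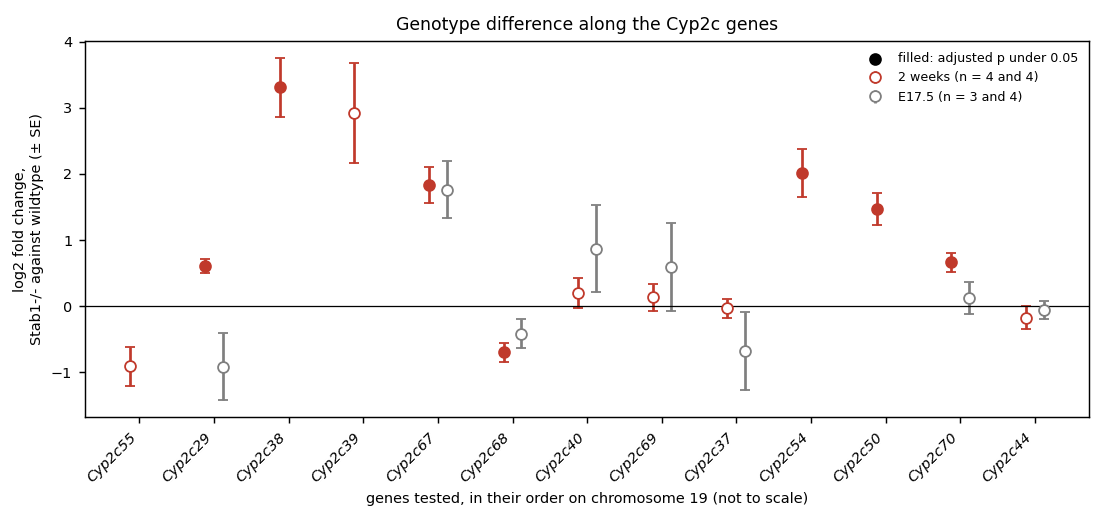
Log2 difference between Stab1-/- and wildtype liver (± SE, edgeR) for the 13 Cyp2c genes tested at 2 weeks, in chromosome order, at 2 weeks (red) and E17.5 (grey), with filled points for an adjusted p under 0.05. Points well above 0 at 2 weeks include Cyp2c38 at 3.31 and Cyp2c54 at 2.01, while Cyp2c68 lies below 0 and Cyp2c37 on the line.

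Coverage, the percent of a gene's annotated length that any read touched, was the other measure in the table. For Cyp2c38, 108 to 128 reads in the Stab1-/- libraries of 2 weeks touched only 14.3 to 20.2% of its length, whereas 63 to 114 reads of Cyp2c55 touched 73.0 to 81.8% in the same libraries. Cyp2c38 reads thus came from a small stretch of the gene. Of the 50-base words of the Cyp2c38 transcript, 92.6% occur in no other gene and 6.88% also occur in Cyp2c39. Whether reads of Cyp2c39 were counted on Cyp2c38 was not tested. Coverage of Cyp2c54 at 2 weeks did not follow its reads. In Stab1-/- replicates 2 and 3, 189 reads each touched 18.19% and 60.02% of its length. In wildtype replicate 3, 27 reads touched 43.35%, and in wildtype replicate 4, 71 reads touched 19.99%. The cause was not tested.

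Coverage of Cyp2c37 differed between the genotypes, although its reads did not pass the test. It was 75.2 to 82.0% in the Stab1-/- and 91.7 to 92.6% in the wildtype libraries of 2 weeks, and the genotypes did not overlap. Stab1-/- replicate 2 covered 82.0% with 3939 reads, while wildtype replicate 2 covered 92.6% with 2825 reads. Coverage of Cyp2c68 was also lower in Stab1-/- libraries without overlap. It was 72.1 to 74.5% against 76.8 to 79.5% at 2 weeks and 69.5 to 74.7% against 75.8 to 79.4% at E17.5. Unlike those of Cyp2c37, Cyp2c68 reads at 2 weeks were fewer without overlap, at 1211 to 1702 against 1889 to 2826. At E17.5 they overlapped. Coverage of Cyp2c69 at 2 weeks was lower without overlap, at 55.1 to 59.7% against 62.8 to 65.8%. At E17.5 the coverage of Cyp2c44 was 96.44 to 96.69% against 97.25 to 98.78%. Coverage was higher in Stab1-/- libraries without overlap for Cyp2c29, Cyp2c38, Cyp2c39 and Cyp2c50 at 2 weeks and for Cyp2c67 at E17.5. Each of these genes also had more reads without overlap at that age. The part of read number in these coverages was not tested. Among all genes tested, coverage was lower without overlap in 3.11% and higher in 2.8% at 2 weeks, and lower in 6.92% and higher in 2.13% at E17.5. Of the 50-base words of Cyp2c37, 69.9% are its own and 21.1% are shared with Cyp2c50, whose coverage was instead higher in Stab1-/- libraries, at 83.0 to 87.4% against 66.7 to 74.5%. Whether the genotypes carry the same alleles of these genes was not tested.

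**Figure D3:**
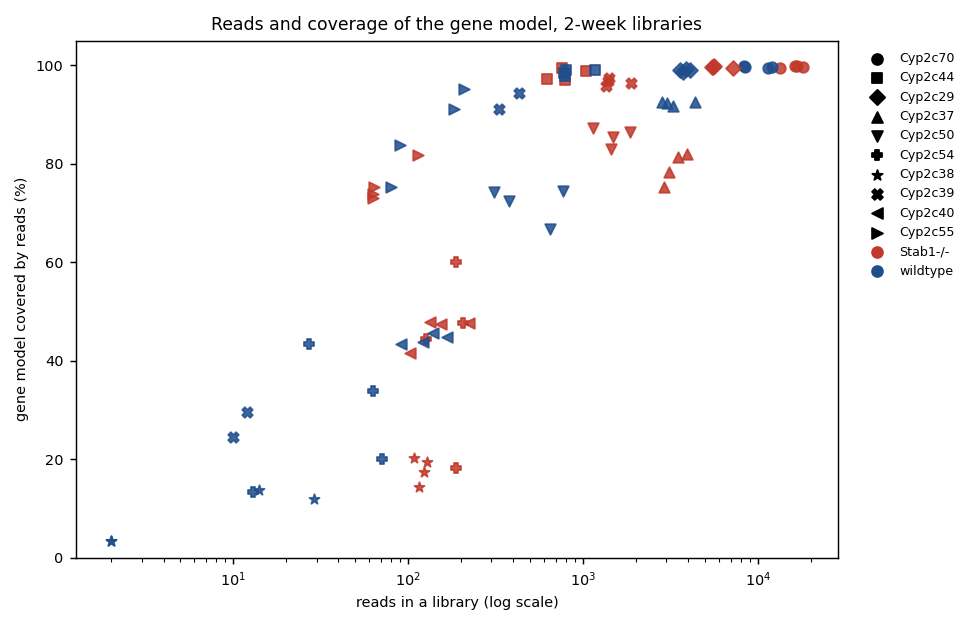
Percent of each gene model covered by reads against the reads counted, on a log axis, for the 10 Cyp2c genes in the 8 libraries of 2 weeks (red Stab1-/-, blue wildtype, 1 marker shape per gene). Cyp2c38 stays under 21% with over 100 reads, and the red Cyp2c37 points lie below the blue ones at like reads.

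At E17.5 no difference between the genotypes was called among the 10 genes. Only Cyp2c70, Cyp2c29, Cyp2c37, Cyp2c44 and Cyp2c40 had enough reads to be tested, and edgeR called 0 of the 5, of which Cyp2c29 and Cyp2c37 passed the filter through the wildtype libraries alone, against 0.194% higher and 0.172% lower, or 0.366% in either direction, of 13388 genes tested. Scaled by library totals, 22 genes were higher and 32 lower in place of 26 and 23. None of the 5 reached an unadjusted p under 0.05, and DESeq2 and limma also called 0. Cyp2c70 had 1541, 2145 and 1390 reads in Stab1-/- and 1699, 1878, 2031 and 1003 in wildtype libraries, a log2 difference of 0.12 (SE 0.24). Cyp2c29 had 8, 8 and 11 reads against 31, 23, 7 and 11, a log2 difference of -0.91 (SE 0.51). These libraries overlapped in both genes.

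Cyp2c39 had 0, 1 and 0 reads in fetal Stab1-/- and 8, 1, 7 and 14 in fetal wildtype libraries, at counts too low for the filter. It was the 1 gene of the 10 whose fetal RPKM ranges did not overlap, and a single read in 1 library of each genotype set that gap. Of all genes tested, 2.91% lay higher and 9.3% lower without overlap. Cyp2c67, outside the list, was higher in all 3 fetal Stab1-/- libraries, at 83, 103 and 55 reads against 39, 32, 22 and 7, with a log2 difference of 1.76 (SE 0.43) and an adjusted p of 0.154 by edgeR and of 0.00440 by DESeq2, both with Benjamini-Hochberg adjustment. DESeq2 was the 1 of 13 other settings that called it.

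Whether the genotype difference itself changed with age was tested with an interaction term over all 15 libraries. Of the 10 genes, 0 were called, against 0.799% higher and 1.01% lower, or 1.81% in either direction, of 13885 genes tested, and 3 had an unadjusted p under 0.05. The split over all genes was 111 higher and 140 lower, but 209 and 83 when scaled by library totals and 4105 and 57 when scaled by hepatocyte markers. The 3 genes were Cyp2c29, Cyp2c38 and Cyp2c39. The estimated log2 difference of each was more positive at 2 weeks, by 1.55 (SE 0.44), 4.33 (SE 1.40) and 6.90 (SE 3.14). The adjusted p-values of the 3 genes were 0.0702, 0.0921 and 0.199 by edgeR with Benjamini-Hochberg adjustment, and DESeq2 called all 3. The fetal side of these estimates rests on few reads a library, 7 to 31 for Cyp2c29, 0 to 4 for Cyp2c38 and 0 to 14 for Cyp2c39. Cyp2c38 and Cyp2c39 did not pass the filter at E17.5. That a gene was called at 2 weeks and not at E17.5 thus does not by itself show a difference between the ages.

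The order of levels, compared between genes as RPKM, changed with age. RPKM was made from unique reads and the full listed length, so genes that share sequence may be understated beside the others. Of the 50-base words of Cyp2c70, 100% occur in no other gene. This share is 56.7% for Cyp2c68, 47.2% for Cyp2c67, 45.2% for Cyp2c69 and 27.9% for Cyp2c40. Its effect on the order, shares and sums was not tested. At 2 weeks Cyp2c70 led in both genotypes with a mean 51.6% of the summed Cyp2c RPKM in Stab1-/- and 46.5% in wildtype liver, followed by Cyp2c29 and Cyp2c37, whose ranges overlapped in wildtype and not in Stab1-/- liver. Cyp2c39 and Cyp2c50 stood at 81.5 ± 14.4 and 78.7 ± 13.4 RPKM in Stab1-/- liver (mean ± SD, n = 4) and overlapped with each other. In wildtype liver, the ranges from Cyp2c44 downward overlapped from each gene to the next. At E17.5 Cyp2c68 and Cyp2c70 led with overlapping ranges in both genotypes, and Cyp2c68 made up a mean 47.8% of the summed level in wildtype liver.

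The summed level of the 16 Cyp2c genes was 1718 to 1934 RPKM in Stab1-/- and 1088 to 1306 RPKM in wildtype libraries of 2 weeks. Most of that gap was Cyp2c70 and Cyp2c29. At E17.5 the sums were 184 to 315 and 184 to 296 RPKM.

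**Figure D4:**
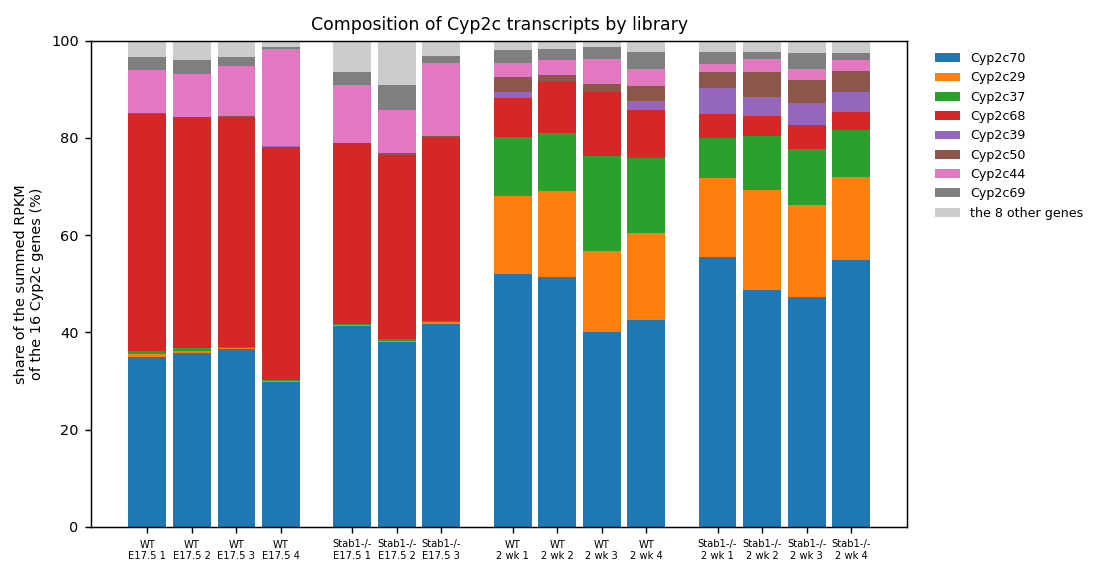
Share of each gene in the summed RPKM of the 16 Cyp2c genes, 1 bar per library, on an axis from 0 to 100%. RPKM rests on unique reads, so genes that share sequence may be understated. Cyp2c68 and Cyp2c70 fill most of each fetal bar, and Cyp2c39 is visible in all 4 Stab1-/- bars of 2 weeks and in wildtype bars 1 and 4 only.

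The surrounding P450 system was read from fixed gene lists. Of 36 tested P450 genes outside the Cyp2c subfamily, 2 were higher in Stab1-/- liver at 2 weeks and 0 lower: Cyp2b13, by 0.80 (SE 0.18, adjusted p = 0.0358), and Cyp2g1, by 1.03 (SE 0.22, adjusted p = 0.0330), both on the log2 scale by edgeR with Benjamini-Hochberg adjustment. Over all genes tested, 0.936% were called higher and 1.74% lower. Between ages, 34 of 35 rose in wildtype and 34 of 36 in Stab1-/- liver, against 34.9% and 35.7% of all genes tested. Some of these genes, such as Cyp2g1 with at most 1 read in any fetal library, could pass the filter only through the libraries of 2 weeks. Such genes could only be called higher, so these counts are a description.

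Of 28 tested partners and regulators of P450 enzymes, 1 was called between genotypes at 2 weeks, near the 2.67% of all genes: Bcl6, a repressor of growth hormone responses, rose by 2.20 (SE 0.39, adjusted p = 0.0144, edgeR, Benjamini-Hochberg). Its level was 3.92 to 14.9 RPKM in Stab1-/- and 1.47 to 1.92 RPKM in wildtype libraries. Of 10 epoxide and eicosanoid enzyme genes, 7 were tested at 2 weeks and 0 called, and all 7 differences were below 0.

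Of the 9 linked genes on either side of the cluster, including Hells and Pdlim1, 0 were called between genotypes at either age, with a median log2 difference of -0.21 at 2 weeks. Of 9 pericentral markers 3 were lower in Stab1-/- liver, and 0 were higher, against 1.74% and 0.936% of all genes tested. The lowest p-values were those of Oat and Glul, which fell by 1.22 and 0.83 on the log2 scale. The summed level of the 9 markers was 4107 to 5555 RPKM in Stab1-/- and 3054 to 4126 RPKM in wildtype libraries, and most of it was the pericentral P450 gene Cyp2e1, named after its values were seen, with means of 4537 and 3061 RPKM. The sum thus ran against the markers called. Of 8 periportal markers, 1 was lower, against the same 1.74%, the gluconeogenic gene Pck1. Hepatocyte markers summed to 58652 to 74436 RPKM in Stab1-/- and to 74813 to 94266 RPKM in wildtype libraries, and 0 of 7 were called. The part of liver zones in the Cyp2c differences was not tested.

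Genes outside the subfamily with the most similar pattern were found by correlation with the mean centred log2(RPKM + 0.1) of the 10 genes. Over the 15 libraries these were Hsd11b1, which regenerates active glucocorticoid, Ddrgk1, 2300009A05Rik, Il1rap and Amy1, with Pearson r from 0.988 to 0.991 among 11962 genes. Hsd11b1 had a mean of 474 RPKM in Stab1-/- and 352 RPKM in wildtype liver of 2 weeks, and 86.0 and 101 RPKM at E17.5. Over the 8 libraries of 2 weeks they were Klhl33, Klc4, Adamdec1, Cx3cr1 and Csprs, with r from 0.957 to 0.979. The points share genotype, age and library depth, and the lists describe these libraries only.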

How the data were processed

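Liver RNA-seq of 15 libraries was read from 1 deposited table. The authors deposited, per gene and library, counts of unique reads, RPKM values made from those counts, the listed gene length and the total of reads on genes, and the coverage of the gene model in percent. Aligner, counter, genome build and strand use are not given in the sources used here, so overlapping and near-identical genes are uncertain. No test for sequencing is named in the study's methods.

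Groups followed the labels. Counts were tested with edgeR 4.0.16 (TMM, quasi-likelihood, two-sided, low counts removed by filterByExpr at its settings of 10 per library and 15 in all) in R 4.3.3 over all genes, within each age, within each genotype, and as an interaction over all libraries. Benjamini-Hochberg adjusted p-values under 0.05 were called. Standard errors are the log2 difference divided by the square root of F. Folds of mean RPKM and mean ± SD use the deposited RPKM. Where a group held 1 to 3 reads in all, the ratio of shares has an exact conditional interval. Alternatives were DESeq2 1.42.0, limma 3.58.1 on log2(RPKM + 0.1) and log2(RPKM + 1), other filters and scalings, GC-content offsets, the replicate number as a block, 1 fit to all libraries, and leaving out each library. The fits were tested on simulated counts.

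The 10 genes and all lists were chosen with earlier results of these data known. Other genes were named by a fixed rule: the rest of the Cyp2c symbols, Stab1, at most 4 genes of a list by lowest p or most reads unless a result turned on them, and 5 genes by correlation over 15 and over 8 libraries (mean RPKM of at least 1). Promoters, searched on both strands with Python, and gene positions are RefSeq's for GRCm38.p6, and word uniqueness is from GENCODE vM21 transcripts. Counting intervals cover counting error only.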

Additional observations from a re-analysis of the deposited data

Results flagged for a closer look

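Among the 10 Cyp2c genes, 30 groups of 4 libraries were checked for a library whose level stood apart from the other 3. In 2 groups 1 did, where chance at about 1 in 20 gives 1.5. Cyp2c55 in Stab1-/- replicate 2 at 2 weeks had 5.42 RPKM, against 3.28 RPKM in the nearest other library. Cyp2c55 in wildtype replicate 3 at E17.5 had 0.0459 RPKM, which is 1 read, against 0 in the others. With 0 in the other 3 libraries any read is flagged, so this flag says nothing of that library.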

How the results depend on the processing

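The 5 calls at 2 weeks rest on 4 libraries a genotype. Cyp2c29, Cyp2c38, Cyp2c50 and Cyp2c54 stayed called in all 13 other settings and all 8 fits without 1 library, Cyp2c70 in 10 and 3 of them. Cyp2c38 passed the filter through the Stab1-/- libraries alone and so could only be called higher, and its calls are a description. At E17.5, 5 of the 10 had too few fetal reads for the filter, and Cyp2c29 and Cyp2c37 were tested on 6 to 32 reads a library. Over all genes at 2 weeks, 119 were called higher and 221 lower, against 429 and 458 with DESeq2, 642 and 539 with the replicate block, 326 and 349 with GC-content offsets and the block, 316 and 387 when the 15 libraries shared a fit, 120 and 99 with limma on log2(RPKM + 0.1), 143 and 109 on log2(RPKM + 1), and 75 and 66 with limma and no filter. At E17.5 these were 26 and 23, against 107 and 112 with DESeq2 and 10 and 13 with the block. In the interaction they were 111 and 140, against 448 and 618 with DESeq2 and 649 and 439 with the block. GC content and the log2 difference at 2 weeks had a rank correlation of -0.325 across genes.

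At 2 weeks, 1 gene was called lower, Cyp2c55, with DESeq2, in the fit blocked on replicate number, and when GC-content offsets joined that replicate block. The interaction called 3 genes higher with DESeq2, 2 with limma on log2(RPKM + 0.1), 5 on log2(RPKM + 1), 1 with limma and no filter, 1 with the replicate block and 4 when scaled by hepatocyte markers, where fits without 1 library called 0 to 1. The 1 call came without wildtype replicate 1 at 2 weeks (Cyp2c38) or wildtype replicate 3 at E17.5 (Cyp2c29).

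Values that changed sign were all uncalled, and the cause was not tested. At 2 weeks, the Cyp2c37 difference was 0.065 scaled by library totals, 0.075 with limma on log2(RPKM + 0.1) with or without a filter, 0.074 on log2(RPKM + 1), and -0.096 to 0.12 without 1 library. That of Cyp2c40 was -0.0087 to 0.36 without 1 library. At E17.5, Cyp2c40 ranged from -0.19 to 1.34, Cyp2c44 from -0.14 to 0.059 and Cyp2c70 from -0.12 to 0.26 without 1 library. With the replicate block Cyp2c44 was at 0.061 and Cyp2c70 at -0.090, and with GC-content offsets and the block Cyp2c44 was at 0.035. Between ages, Cyp2c40 in wildtype was at -0.45 scaled by hepatocyte markers. In Stab1-/- liver it was at 0.016 with limma with or without a filter, 0.29 with the replicate block, 0.17 with GC-content offsets and the block, and -0.69 to 0.87 without 1 library. In the interaction, Cyp2c40 was at 0.015 scaled by hepatocyte markers and -1.11 to 0.44 without 1 library, Cyp2c55 at -2.66 to 0.55, and Cyp2c44 at -0.20 to 0.083. Cyp2c44 was further at 0.039 scaled by library totals, 0.024 with limma on log2(RPKM + 0.1) with or without a filter, 0.023 on log2(RPKM + 1), and 0.44 scaled by hepatocyte markers.

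Whether the replicate numbers pair the samples is not known. At 2 weeks, libraries of the 2 genotypes with the same number deviated together with a mean correlation of 0.141 (lowest 0.0233). Those with different numbers had a mean of -0.047 (highest 0.283). At E17.5 the means were -0.101 for the same number and 0.033 for different numbers. Scaling by library totals moved the median of all genes to 0.078 at 2 weeks, -0.378 between ages in wildtype and -0.238 in Stab1-/- liver.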
